A study of Homo sapiens with 5 samples.

Results

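The protein subunits of the mitochondrial ribosome were compared between drug-tolerant and parental PC9 cells. Genes were taken by symbol, MRPL for the large and MRPS for the small subunit followed by a number and, for some, a letter from A to C. This gave 79 of the 27477 genes in the authors' deposited table, 50 named MRPL and 29 named MRPS, with 78 different symbols. An adjusted p was given for 78 of the 79, that is 49 MRPL and 29 MRPS genes, out of 15223 genes with one in all. PC9 is an established human lung adenocarcinoma line that depends on a mutant EGFR, the kinase inhibited by gefitinib. The 3 parental libraries were labelled only as PC9 parental, and the 2 drug-tolerant libraries came from PC9 cells given 50 nM gefitinib for 6 days and then growth medium for 3 days. All were grown in RPMI-type medium with 10% serum, RNA was isolated with TriZol, and stranded mRNA libraries were sequenced. The labels repeat 1 treatment text for every library, do not say whether replicates were separate cultures, and name 1 cell line, so the p-values reflect the spread among these libraries alone, and that spread may be technical.

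The mitochondrial ribosome sits inside the organelle and translates the few mRNAs that mitochondrial DNA encodes, all of them for membrane subunits of the respiratory chain and ATP synthase. Its ribosomal RNAs come from mitochondrial DNA, but every one of its proteins is encoded in the nucleus, made on cytosolic ribosomes and imported. Some of these proteins have a counterpart in the bacterial ribosome and others were acquired in the course of mitochondrial evolution. Balanced output of subunits, assembly factors and translation factors is what keeps respiratory complexes supplied.

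Epithelial markers chosen for PC9 were abundant, with mean levels from 3777.9 for CDH1 to 35758 for KRT8 in the authors' deposited table. Of the markers of other cell types PTPRC, CD3E and COL3A1 had no row there, PDGFRB and VWF had mean levels of 0.353 and 6.61, and CDH5 and COL1A1 of 252.84 and 162.42. Library depths were estimated as the size factor recovered for each library times the summed mean level of all genes. They lay between 14.2 and 21.4 M reads. The table has no value per library, but whole reads could be recovered for the 12705 genes with a mean level under 10, where each library was given a letter because its replicate number is not known. In those genes parental b and c differed by no more than counting noise (chi-square per degree of freedom 1.05, p = 0.0961 over 1423 genes). The 2 drug-tolerant libraries were nearly as alike (chi-square per degree of freedom 1.10, p = 0.00103 over 1972 genes). Parental a differed from parental b and c by 3.36 and 3.43 and from the drug-tolerant libraries by 1.36 and 1.44. Parental b and c differed from the drug-tolerant libraries by 3.035 to 3.359. In the same low genes, reads of transcripts over 4000 nt per read of transcripts under 2000 nt came to 0.800 in parental a. They came to 0.508 in parental b, 0.494 in parental c, 0.813 in drug-tolerant a and 0.698 in drug-tolerant b. The authors' comparison counted all 5 libraries separately, and its values cannot be recomputed here without parental a or with b and c as 1 sample.

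None of the 78 tested genes was called. In the authors' deposited table, 0 had an adjusted p under 0.05 in DESeq2 in either direction, against 44 lower (0.289%) and 40 higher (0.263%) of the 15223 genes tested (0.552% together), and the smallest adjusted p among the 78 was 0.449. At an unadjusted p under 0.05, 3 were lower and 0 higher, against a background of 7.1% lower and 3.7% higher. Their values nevertheless lay mostly on one side of 0: 73 of the 78 log2 fold changes were negative, meaning lower in drug-tolerant cells, against 51.6% of all genes tested. The median over the 78 was -0.36 (quartiles -0.49 and -0.24), a fold of 0.777, beside -0.02 (quartiles -0.33 and 0.29) for all genes tested. Group means estimated from the authors' mean levels and moderated fold changes summed to 73915 in parental and 58179 in drug-tolerant libraries, a ratio of 0.787. These are shares of the RNA sequenced, so less of these transcripts per cell and more of others cannot be told apart.

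The error of a single gene was about as large as most of these values. The median standard error of a log2 fold change was 0.32 for these genes and 0.31 for all genes tested, while the 78 values had an SD of 0.20 among themselves, against 0.42 for all genes tested. Of the 78, 47 lay more than 1 standard error below 0, 30 lay within 1 standard error of it and 1, MRPS25, lay more than 1 above. The 95% interval held 0 in all but 3 genes. Its lower end was above -1, the log2 value of a halving, in 37 genes and at or below -1 in 41, against 77.8% above -1 among all genes tested. Because the spread between genes was smaller than the error of each, neighbours in the order from lowest to highest did not differ beyond their errors.

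**Figure D1:**
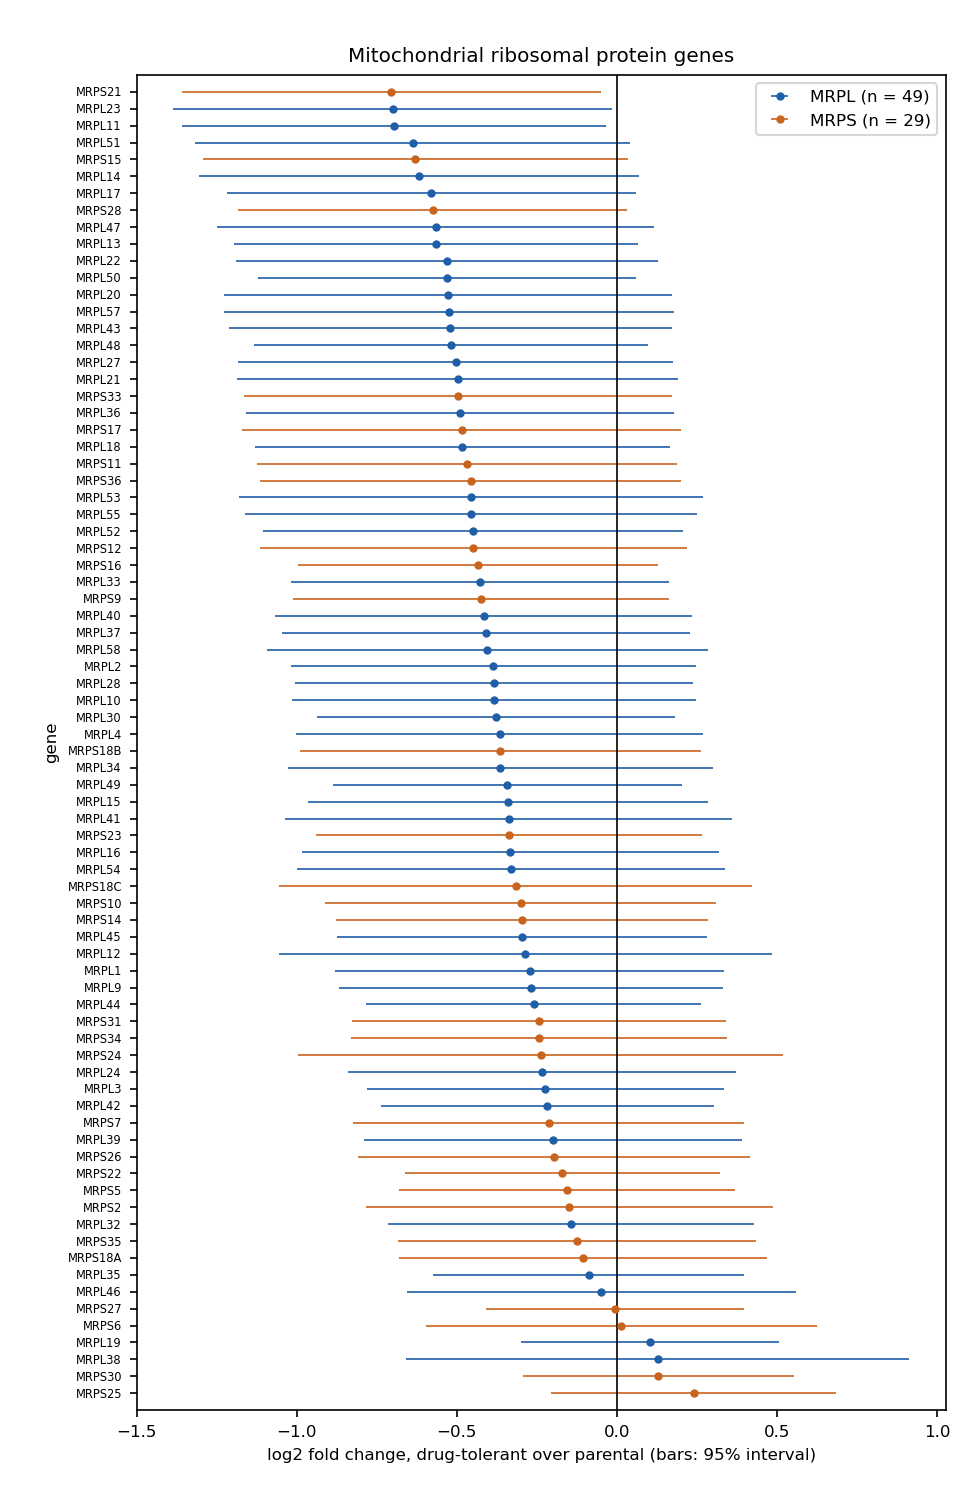
Log2 fold change of each of the 78 tested genes (points; x axis, drug-tolerant over parental) with its 95% interval (bars), ordered from the lowest, MRPS21, to the highest, MRPS25. MRPL genes are blue and MRPS genes orange; 73 points lie left of 0 and 3 intervals do not reach it.

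In the large subunit, 47 of 49 MRPL genes had negative values, with a median of -0.39 (quartiles -0.52 and -0.29). MRPL11, which with MRPL10 forms the base of the stalk that recruits translation factors, lies on chromosome 11 (66435075 to 66466738, GRCh38; ENSG00000174547). In the authors' deposited table it had a log2 fold change of -0.70 ± 0.34 (SE), a mean level of 1402 over the 5 libraries, and an adjusted p of 0.454 in DESeq2. The means estimated for MRPL11 were 1655 in parental and 1022 in drug-tolerant libraries. MRPL23, a protein of the exit tunnel region (chromosome 11, 1947278 to 1984522; ENSG00000214026), was at -0.70 ± 0.35 with an adjusted p of 0.460 (DESeq2) in the authors' deposited table. The other 4 of the 6 MRPL genes with the smallest p were MRPL51 at -0.64 ± 0.35, MRPL17 at -0.58 ± 0.33, MRPL14 at -0.62 ± 0.35 and MRPL50 at -0.53 ± 0.30 in the authors' deposited table. At the other end stood MRPL38 (0.13 ± 0.40), MRPL19 (0.10 ± 0.21) and MRPL46 (-0.05 ± 0.31), the highest values among the 49 tested MRPL genes in the authors' deposited table. MRPL38 and MRPL46 both belong to the central protuberance, the knob of the large subunit that faces the small one.

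Values at the functional sites of the large subunit overlapped. Besides MRPL11, the stalk genes MRPL10 and MRPL12 were at -0.38 ± 0.32 and -0.29 ± 0.39 in the authors' deposited table. All 5 genes near the peptidyl transferase centre, where peptide bonds form, were negative, from MRPL27 at -0.50 ± 0.35 through MRPL2 (-0.39 ± 0.32), MRPL4 (-0.37 ± 0.32) and MRPL16 (-0.33 ± 0.33) to MRPL3 at -0.22 ± 0.28 in the authors' deposited table. Of the 8 genes around the polypeptide exit, all were negative, with a median of -0.41 and a range from -0.70 for MRPL23 to -0.20 for MRPL39. In the central protuberance 4 of 5 genes were negative, with MRPL48 at -0.52 ± 0.31, MRPL18 at -0.48 ± 0.33 and MRPL40 at -0.42 ± 0.33 in the authors' deposited table beside MRPL38 and MRPL46. No gene of these sites was called. With the trend on transcript length and GC content removed, as described further on, negative values numbered 2 of 3 in the stalk, 4 of 5 near the peptidyl transferase centre, 6 of 8 around the exit and 3 of 5 in the central protuberance. The medians were then -0.16, -0.05, -0.14 and -0.11 in that order.

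In the small subunit, 26 of 29 MRPS genes were negative, with a median of -0.30 (quartiles -0.45 and -0.16). MRPS21, whose bacterial counterpart sits on the platform near the mRNA exit, had the smallest p of all 78 genes. It lies on chromosome 1 (150293720 to 150308979; ENSG00000266472), and the authors' deposited table gave MRPS21 a log2 fold change of -0.71 ± 0.33, an adjusted p of 0.449 (DESeq2) and a mean level of 918. The means estimated for MRPS21 were 1087 in parental and 666 in drug-tolerant libraries. MRPS28 (-0.58 ± 0.31), MRPS15 (-0.63 ± 0.34), MRPS16 (-0.43 ± 0.29), MRPS33 (-0.50 ± 0.34) and MRPS9 (-0.42 ± 0.30) followed by p in the authors' deposited table. MRPS12, part of the decoding centre, was at -0.45 ± 0.34, and all 6 genes of the decoding centre and mRNA channel were negative, up to MRPS2 at -0.15 ± 0.32 in the authors' deposited table. Their median was -0.34, and with the length and GC trend removed it was -0.03, with 3 of 6 negative. The highest values among MRPS genes were MRPS25 (0.24 ± 0.23), MRPS30 (0.13 ± 0.22) and MRPS6 (0.01 ± 0.31) in the authors' deposited table. MRPS27, with an abundant transcript and the smallest standard error, was at -0.01 ± 0.21 there (95% interval -0.41 to 0.40).

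Names do not follow structure in every case. MRPS30 and MRPS18A, which structures place in the large subunit, were at 0.13 ± 0.22 and -0.11 ± 0.29 in the authors' deposited table, and MRPS36, now assigned to the oxoglutarate dehydrogenase complex, at -0.46 ± 0.34. With these moved or left out, the medians were -0.38 for 51 large subunit genes and -0.30 for 26 small subunit genes. Genes with a bacterial counterpart had a median of -0.38, with 45 of 47 negative, and those specific to mitochondria had -0.33, with 26 of 29 negative. MRPL55, at -0.46 ± 0.36 in the authors' deposited table, was in neither list, nor was MRPS36. Neither difference was tested.

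The genes are short, and fold changes followed transcript length across all genes. The 78 principal transcripts had a median of 1459 nt (518 to 15582), and 69 were shorter than the median of 3171 nt over the 12451 tested protein-coding genes with a length. Across those genes Spearman's rho between log2 fold change and length was 0.533, given as a description since genes share libraries. Of these genes, 51.9% were negative. In the 1245 shortest the median log2 fold change was -0.51 and 86.7% were negative, while the 35 mitochondrial ribosomal protein genes among them had a median of -0.43, with 34 negative. In the 1245 next in length the median of all genes was -0.30 with 80.4% negative, and that of the 23 members among those was -0.36 with 22 negative. Of 10 bins by length, counted from the shortest, bin 3 held 7 members with a median of -0.30, beside -0.19 for all its genes. Bin 4 held 3 members at -0.43 beside -0.12, and bin 6 held 5 at -0.47 beside 0.03. Bins 5, 7, 8, 9 and 10 held 1 member each. It lay below the bin median in bins 7, 9 and 10 and above it in bins 5 and 8. Within the 78, rho with length was 0.211 and Pearson's r with log10 length 0.255.

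After the trend with length and GC content was removed, the median of the 78 genes was -0.09, beside -0.02 for all 12451. Negative values numbered 51 in place of 73, against 52.1% of all genes, and 0 genes were called, against 0.241% lower and 0.305% higher in that fit. The departure from the trend was under 1 standard error in 64 genes, lower by more in 11 and higher by more in 3. MRPL genes then had a median of -0.11 with 36 of 49 negative and MRPS genes -0.01 with 15 of 29 negative. Among the 11 were MRPL50 at -0.48, MRPL11 at -0.45 and MRPS21 at -0.44 with the trend removed. MRPS33 and MRPL42, whose principal transcripts are 4241 and 15582 nt long, were at -0.61 and -0.60. MRPL42 was at only -0.22 ± 0.27 in the authors' deposited table. Its place among the 11 thus rests on a trend value of 0.365 at the transcript length taken for it. The 3 above were MRPS6 at 0.38, MRPS30 at 0.36 and MRPL46 at 0.31. The trend ran with the split of libraries described above, in which parental b and c hold fewer reads of long transcripts than parental a and the drug-tolerant libraries. What part that split has in the fold changes of these genes was not tested.

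**Figure D2:**
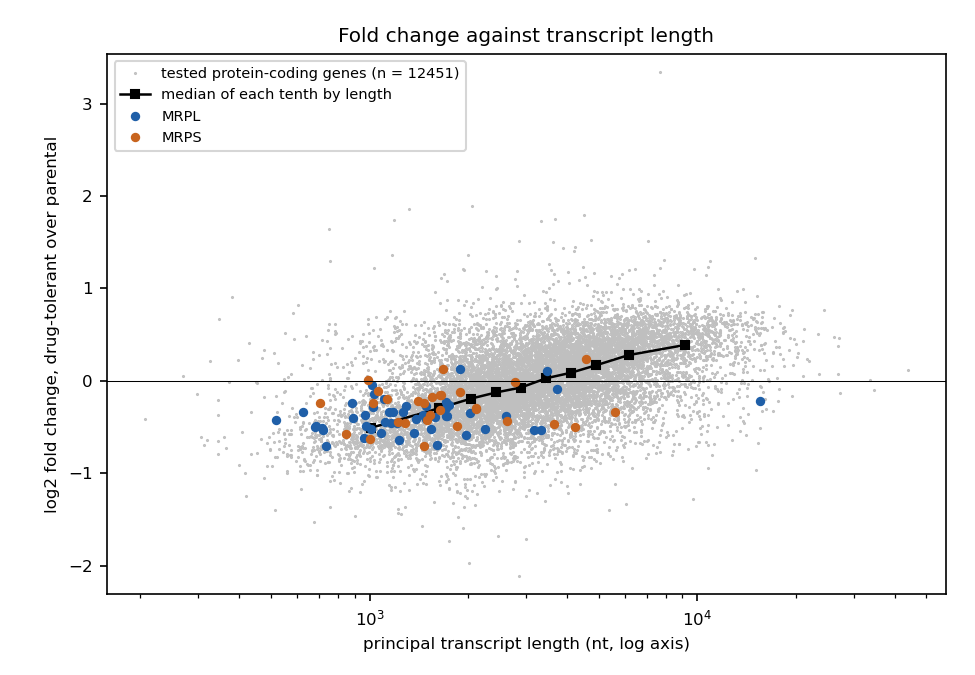
Log2 fold change (y axis) against principal transcript length (x axis, nt, log scale) for 12451 tested protein-coding genes (grey), the medians of 10 bins by length (black squares), and MRPL (blue) and MRPS (orange) genes. The members gather at the short end, and the black line runs from -0.51 to 0.39.

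Lists of related genes had medians between -0.77 and 0.26, and 0 genes were called in any of them, against 0.552% of all genes tested. The 5 mitoribosomal subunits with other symbols had a median of -0.30, with AURKAIP1 at -0.62 ± 0.37, CHCHD1 at -0.52 ± 0.33 and DAP3, a GTP-binding protein of the small subunit head, at -0.30 ± 0.29, while PTCD3 was at 0.54 ± 0.34 in the authors' deposited table. Complex I subunits were taken by symbol (NDUFA, NDUFB, NDUFC, NDUFS or NDUFV and a number) and not by structure. With 32 of 36 negative, they had a median of -0.50. Their 3 smallest p belonged to NDUFB4 (-0.88 ± 0.34), NDUFC2 (-0.84 ± 0.37) and NDUFA2 (-0.80 ± 0.37) in the authors' deposited table. Of the mRNAs that this ribosome translates, encoded in mitochondrial DNA, all 13 were negative, with a median of -0.43 and ND6, ND2 and ND1 at -0.55 ± 0.30, -0.59 ± 0.33 and -0.61 ± 0.35 in the authors' deposited table. Cytosolic ribosomal proteins, with 78 of 80 negative, had a median of -0.77, with RPL34 at -1.0 ± 0.36, RPS18 at -0.92 ± 0.34 and RPLP2 at -0.99 ± 0.37 in the authors' deposited table. Net of the length and GC trend these medians were -0.10, -0.17, 0.05 and -0.42 in the same order. All of these values come from the same 5 libraries and are not independent of each other.

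Mitochondrial translation factors had a median of -0.20 over 15 genes, 13 of them negative, with the initiation factor MTIF3 at -0.67 ± 0.32 and the elongation factor GFM1 at 0.56 ± 0.25 in the authors' deposited table. DESeq2 gave them adjusted p of 0.452 and 0.434. TUFM, the elongation factor that carries aminoacyl-tRNA, and TSFM, its exchange factor, were at -0.28 ± 0.29 and -0.47 ± 0.30 in the authors' deposited table. Assembly factors had a median of -0.05 over 25 genes, with the RNA helicase DHX30 at 0.43 ± 0.21, the endoribonuclease YBEY at -0.64 ± 0.36 and FASTKD2, an RNA-binding protein of large subunit assembly, at 0.37 ± 0.24 in the authors' deposited table. Mitochondrial tRNA synthetases, which charge tRNAs for this ribosome, had a median of 0.04 over 20 genes, with LARS2 at 0.61 ± 0.29, MARS2 at 0.39 ± 0.26 and AARS2 at 0.41 ± 0.32 in the authors' deposited table. Genes of mitochondrial transcription and RNA processing had a median of 0.26 over 16 genes, 11 of them positive, with the RNA polymerase POLRMT at 0.47 ± 0.23, the DNA polymerase POLG at 0.67 ± 0.33 and the exonuclease PNPT1 at 0.48 ± 0.24 in the authors' deposited table. Nuclear regulators of mitochondrial genes had a median of 0.16 over 8 tested genes, 6 of them positive. Among these were PPARGC1B at 0.75 ± 0.41, PPRC1 at 0.46 ± 0.27, NRF1 at 0.20 ± 0.26 and GABPA at 0.17 ± 0.30 in the authors' deposited table. YY1 was at 0.09 ± 0.22 there, and the 2 negative genes were GABPB1 at -0.13 ± 0.24 and ESRRA at -0.10 ± 0.28. PPARGC1A, at a mean level of 0.589, had no adjusted p. With the trend removed the medians were -0.12 for translation factors, -0.04 for assembly factors, 0.07 for tRNA synthetases, 0.30 for transcription and RNA processing and 0.09 for regulators. These lists differ in median length, from 2169 nt for assembly factors to 4968 nt for regulators.

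**Figure D3:**
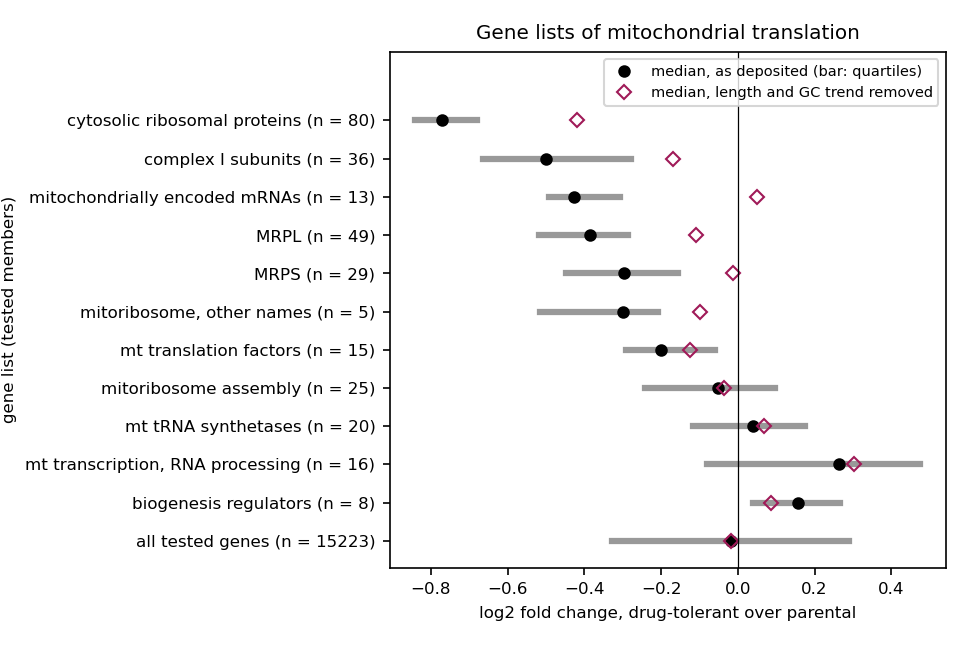
Median log2 fold change of each gene list as deposited (black points, bars from the lower to the upper quartile) and with the length and GC trend removed (open diamonds); n is the number of tested genes. MRPL and MRPS lie at -0.39 and -0.30 as deposited and at -0.11 and -0.01 with the trend removed.

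Promoters of these genes shared sequence matches that the choice by symbol did not use. RefSeq windows of GRCh38.p14, from 250 bases before to 50 bases after an annotated start, were matched for 70 of the 78 genes and gave 86 windows. In 75 of the 86, a stretch shortly after the start was found in a GENCODE release 29 transcript of the gene. An exact match on either strand to CCGGAAG, a site of ETS factors such as GABPA, stood in 33 windows, 38.4%, against 16.9% of 14227 windows of tested protein-coding genes and 10.3% of all 35116 windows. AAGATGG, a core of the YY1 site, stood in 27 windows, 31.4%, against 6.94% and 5.84%. Of its 29 matches, 17 (58.6%) began after the start site, against 47.4% in the tested coding windows, and 22 (75.9%) lay on the strand of the gene, against 67.1%. Of the 45 ETS matches, 31 (68.9%) began no more than 50 bases before the start or after it, against 52.4%. GCGCATG, part of the NRF1 site, stood in 8.14% of these windows against 6.39% of the tested coding windows, GGGCGG (SP and KLF factors) in 60.5% against 65.8%, CACGTG (E-box) in 11.6% against 9.28% and TATAAA in 4.65% against 6.15%. A match is a run of letters and not a shown binding site.

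Windows are shown for some genes with a small p that have an ETS or a YY1 match before the start. They are not a strict ranking, and some genes with a smaller p were left out. MRPS25, the gene with the highest fold change, has none of the 6 motifs and comes last in the windows below. They give the 250 bases before the start, 5′ to 3′ on the strand of the gene, with matches to any of the 6 motifs in capitals, and no 2 matches overlapped.
MRPS21: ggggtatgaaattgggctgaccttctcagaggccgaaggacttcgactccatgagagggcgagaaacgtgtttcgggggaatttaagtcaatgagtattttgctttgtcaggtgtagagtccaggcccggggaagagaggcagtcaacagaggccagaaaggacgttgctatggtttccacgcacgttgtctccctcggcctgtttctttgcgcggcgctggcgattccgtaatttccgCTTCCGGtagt
MRPL51: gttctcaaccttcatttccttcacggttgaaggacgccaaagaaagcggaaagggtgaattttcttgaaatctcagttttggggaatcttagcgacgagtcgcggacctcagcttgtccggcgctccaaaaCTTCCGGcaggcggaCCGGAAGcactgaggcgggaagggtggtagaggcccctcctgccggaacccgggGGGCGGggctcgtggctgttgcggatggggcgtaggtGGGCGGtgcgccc
MRPL47: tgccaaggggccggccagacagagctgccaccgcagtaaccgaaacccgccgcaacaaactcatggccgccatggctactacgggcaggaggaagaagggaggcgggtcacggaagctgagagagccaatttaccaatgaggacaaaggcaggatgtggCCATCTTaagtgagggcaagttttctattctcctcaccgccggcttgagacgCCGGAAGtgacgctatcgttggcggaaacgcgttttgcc
MRPS16: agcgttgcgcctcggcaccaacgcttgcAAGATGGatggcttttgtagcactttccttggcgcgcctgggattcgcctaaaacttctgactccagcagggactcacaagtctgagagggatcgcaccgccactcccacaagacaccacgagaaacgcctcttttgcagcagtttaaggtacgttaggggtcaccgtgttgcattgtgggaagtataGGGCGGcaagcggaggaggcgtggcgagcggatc
MRPS25: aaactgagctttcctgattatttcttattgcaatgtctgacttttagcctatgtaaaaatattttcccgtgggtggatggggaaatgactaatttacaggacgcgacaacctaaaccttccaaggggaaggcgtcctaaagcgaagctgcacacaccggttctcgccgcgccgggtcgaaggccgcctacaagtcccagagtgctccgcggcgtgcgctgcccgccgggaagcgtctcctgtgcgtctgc
The positions are chr1:150293611-150293860 on the plus strand for MRPS21 and, on the minus strand, chr12:6493263-6493512 for MRPL51, chr3:179604639-179604888 for MRPL47, chr10:73252645-73252894 for MRPS16 and chr3:15065316-15065565 for MRPS25. In MRPS21 the capitals mark an ETS match on the opposite strand whose first base is 11 bases before the start. In MRPL51 they mark ETS matches at 119 and 104 bases and SP and KLF matches at 50 and 13 bases before the start. MRPL47 has a YY1 match at 91 and an ETS match at 39 bases, and MRPS16 a YY1 match at 222 and an SP and KLF match at 34 bases before the start. Genes with an ETS match in any window had a median log2 fold change of -0.41 (30 genes) and those without of -0.30 (40 genes); for YY1 the medians were -0.35 (24 genes) and -0.35 (46 genes). Neither difference was tested.

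The transcripts were abundant for their length. Mean level per kilobase of transcript had a median of 522 over the 78 genes (quartiles 250 and 877), against 142 (quartiles 46.2 and 361) for all tested protein-coding genes, and 67 of the 78 were above that median. MRPL genes had a median of 563 per kilobase and MRPS genes of 414. The highest were MRPL51 at 2018, MRPL3 at 1719 and MRPS15 at 1668 per kilobase. The lowest were MRPL38 at 9.51, MRPL53 at 23.5 and MRPS18C at 33.0 per kilobase.

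Of the 5 lowest levels, 4 belonged to genes that share over 20% of their exonic bases with another gene of the same strand. Of the 78, 16 share exonic bases with such a gene in GENCODE release 29. The 7 that share over 20% had a median of 53.5 per kilobase (9.51 to 1464), the 9 that share up to 20% had 449, and the 62 that share none had 565 (33.0 to 2018). MRPL12, the factor-binding protein at the tip of the stalk, shares 68.2% of its exonic bases and had 37.8 per kilobase, MRPL53 shares 45.2%, and MRPL38 shares 37.5%. MRPS24 shares 23.2% with URGCP-MRPS24 and had 53.5 per kilobase, while MRPL33 shares 21.0% with BABAM2 and had 1464. MRPS18C, one of 3 paralogs with MRPS18A and MRPS18B, shares none on its own strand and 40.2% on the opposite one. MRPS28 shares 35.8%, and MRPS17 27.0% with AC092647.5 and NIPSNAP2 jointly. MRPS6 shares 9.61% with AP000317.2 and SLC5A3 jointly, and the share with each gene alone was not computed. SLC5A3, an inositol transporter gene, was at 0.99 ± 0.41 in the authors' deposited table. A further limit is that 29 members share exonic bases with a gene of the opposite strand, among them MRPL51 (31.3%) and MRPS25 (22.2%). How the authors counted reads that fall in 2 genes, and whether they used strand, is not given in the sources used here, so levels and fold changes of these genes are uncertain. Over the 62 genes with no shared base the median log2 fold change was -0.36 with 59 negative.

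**Figure D4:**
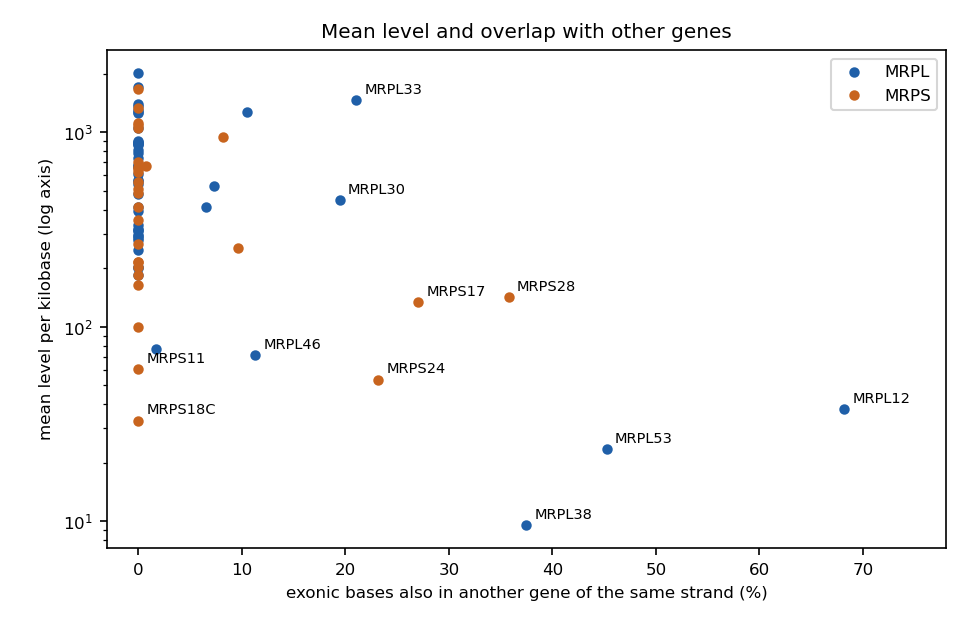
Mean level per kilobase of transcript (y axis, log scale) against the percentage of exonic bases that lie in another gene of the same strand (x axis) for 49 MRPL (blue) and 29 MRPS (orange) genes. Genes sharing over 15% or under 75 per kilobase are named; MRPL38, MRPL53 and MRPL12 stand lowest among those that share over 20%.

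Reads per library could be recovered for 3 of the 79 rows, those whose mean level only 1 set of whole reads fitted. For MRPL12 and MRPS24, at mean levels of 38.9 and 37.8, 5 and 3 sets fitted, and none was used. This search was not tested on simulated data, which limits the values below. For MRPL53, of the large subunit, reads divided by size factor were 31.1, 33.4 and 31.2 in parental a, b and c and 22.9 and 17.7 in drug-tolerant a and b. For MRPL53 all 3 parental libraries were above both drug-tolerant ones, with means of 31.9 ± 1.31 (SD, n = 3) and 20.3 ± 3.66 (SD, n = 2). The log2 ratio of the means was -0.65, beside the moderated -0.46 ± 0.37 that the authors' deposited table gives MRPL53 with a DESeq2 adjusted p of 0.567. It ran from -0.85 to -0.48 when each library was left out. Behind these values stood 37, 34, 30, 26 and 14 reads in the same order.

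For MRPL38 the libraries did not follow the groups. Its values were 23.5, 13.8 and 13.5 for parental a, b and c, against 23.8 and 15.2 for drug-tolerant a and b. Parental a lay with drug-tolerant a, and drug-tolerant b with parental b and c, so the groups overlapped. The log2 ratio of the means was 0.20, 0.52 without parental a and -0.27 against parental a alone. The second row under the symbol MRPL30 (ENSG00000241962), which GENCODE release 29 names AC079447.1 and which overlaps MRPL30, held 5, 5 and 1 reads in parental a, b and c and 5 in each drug-tolerant library. It is the 1 member without an adjusted p, at a mean level of 4.18 in the authors' deposited table, and was left out of all medians above. The main MRPL30 row was at -0.38 ± 0.29 with a mean level of 1171 in the authors' deposited table.

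**Figure D5:**
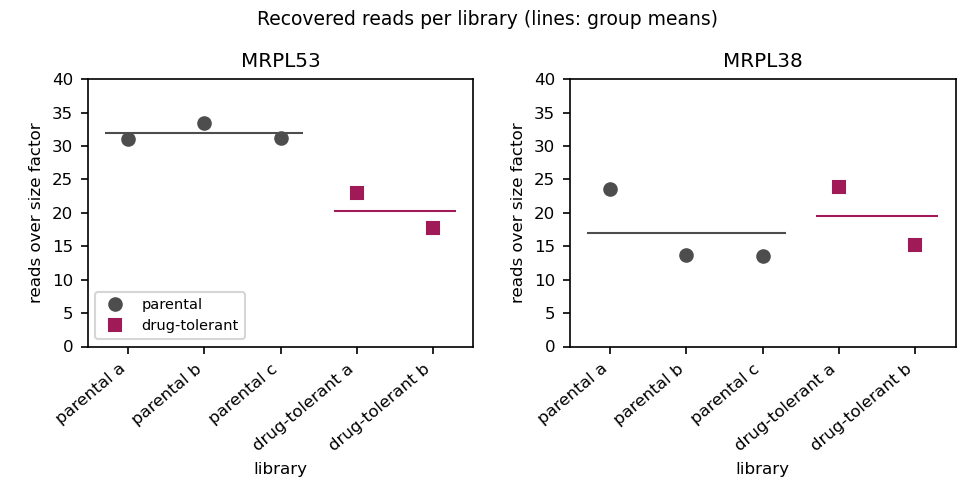
Recovered reads divided by size factor (y axis, from 0) in each library (x axis) for MRPL53 and MRPL38; circles are parental, squares drug-tolerant, and lines are group means. In MRPL53 the 3 parental values (31.1 to 33.4) lie above both drug-tolerant values, while in MRPL38 the groups overlap.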

How the data were processed

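Messenger RNA of 3 parental and 2 drug-tolerant PC9 libraries was compared. The submitters' processing notes name FastQC, STAR, DESeq2 and build hg38. For versions, counting and annotation, nothing is given in the sources used here. A single table of results, with no value per library, was deposited. Its mean level is, by its deposited column, a signal: reads divided by size factors, averaged over 5 libraries. The deposited fold changes and standard errors are log2 values, moderated towards 0. The deposited Wald score equalled the fold change over its error to within 1.84e-07. Adjusted p-values, deposited beside the p-values, equalled a Benjamini-Hochberg adjustment to within 2.0e-05. A called gene has an adjusted p under 0.05. Count tests planned for a table of counts were not run.

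The members, lists and tests were chosen with earlier results of these data known. Named genes were, by rule, the 6 with the smallest p and the 3 with the highest fold change in each of MRPL and MRPS, the 3 highest and 3 lowest per kilobase, genes of the listed ribosomal sites, and the 3 with the smallest p in each related list. Other genes named were chosen after their values were seen.

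Reads of low genes were recovered as whole multiples of 5 steps (1 a library). Exactly 1 solution within 2.0e-09 was found for all 12705 genes whose mean was under 10, and for members with a higher mean only a single solution was accepted. Reads in 3 libraries pulled the fold change below 0 and in 2 above. These were taken as the 3 parental and the 2 drug-tolerant libraries, so positive values are higher in drug-tolerant cells. The groups were assigned from the fold changes themselves, so the 98.9% of signs that then matched is no separate check. Lengths, GC content and overlaps come from GENCODE release 29 (APPRIS principal transcript, the longest where several). The trend was a least-squares spline with 4 knots on log10 length and on GC content, removed from the fold change and from the score, from which p was computed again. The removal of the trend and the recovery of low genes were tested on simulated data, the recovery only at means under 5. The separate search used for the member rows was not tested on simulated data. Python 3.11.15, numpy 2.4.6, pandas 2.3.3 and scipy 1.17.1 were used.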

Additional observations from a re-analysis of the deposited data

How the results depend on the processing

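Under 9 planned and 4 added alternatives, the added ones chosen after seeing the data, 0 members were called lower or higher among those each alternative held, 62 to 79 of them. These were adjusted p under 0.01 and 0.1, mean levels of at least 50 and 100, no filter, the score centred and scaled, the fold change centred, the trend removed in 4 forms, members by structure, and members with no shared exonic base. The smallest adjusted p ran from 0.400 to 0.971. Over all genes the calls, 44 lower and 40 higher, became 14 and 25 at 0.01, 89 and 64 at 0.1, 26 and 34 with no filter, and 0 and 1 with the scaled score. Medians stayed within 1.5 times under all but trend removal. With the length and GC trend removed they were -0.088 for all members, -0.11 for MRPL and -0.013 for MRPS. In the same order they were -0.077, -0.10 and 0.016 with the longest transcript as length, -0.095, -0.10 and -0.073 with the length trend alone, and -0.091, -0.11 and -0.026 with mean level added. The cause was not tested. The sign for MRPS thus depends on the transcript chosen. The log2 ratio for MRPL38 ran from -0.15 to 0.52 when each library was left out, the lowest without drug-tolerant a, and its counts of 12 to 28 reads limit it. For the other tested genes, apart from MRPL53, no library could be left out and no count tool run, because the deposited table has no values per library. No paired analysis was possible because the deposited columns carry no replicate number.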

Other observations

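Some of these genes start close to a neighbour on the other strand. In GENCODE release 29, 17 of the 78 tested genes have a protein-coding gene that starts within 1000 bp upstream on the opposite strand; the share among all genes was not computed. MRPS11 and MRPL46 are such a pair with each other, with starts 34 bp apart, and were at -0.47 ± 0.33 and -0.05 ± 0.31 in the authors' deposited table. All 17 members had negative log2 fold changes, with a median of -0.45 and a median length of 1111 nt, as did 56 of the 61 tested members without such a neighbour, with a median of -0.34 and a median length of 1483 nt. The 13 tested neighbours that are not members had a median of -0.03, with 8 negative, and a median length of 2339 nt. Once the length and GC trend was taken out, the medians were -0.05 for the 17 members, -0.10 for the 61 and -0.06 for the 13 neighbours. The lowest of the 13 neighbours were MITD1 at -0.52 ± 0.26 beside MRPL30 at -0.38 ± 0.29, NDUFS6 at -0.49 ± 0.35 beside MRPL36 at -0.49 ± 0.34, and NDUFB5 at -0.44 ± 0.31 beside MRPL47 at -0.57 ± 0.35 in the authors' deposited table. The highest were IGHMBP2 at 0.62 ± 0.28 beside MRPL21 at -0.50 ± 0.35, EME2 at 0.55 ± 0.29 beside MRPS34 at -0.24 ± 0.30, and EME1 at 0.31 ± 0.26 beside MRPL27 at -0.50 ± 0.35 in the authors' deposited table. These 6 were chosen after their values were seen. None of these genes was called in DESeq2, and no difference within a pair was tested.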
